A study of Mus musculus with 14 samples.

Results

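The genes examined here encode chondroitin sulfate proteoglycans, tenascins and a link protein of the brain matrix, and 10 genes were taken by symbol out of 46983 in each of 2 deposited tables. All 10 were present in both tables. They are the lecticans Vcan, Bcan, Ncan and Acan, the link protein gene Hapln2, the membrane proteoglycans Cspg4, Cspg5 and Ptprz1, and the tenascins Tnc and Tnr. Lecticans bind hyaluronan at one end and tenascins at the other, and link proteins lock the lectican onto the hyaluronan chain. Around myelinated axons such complexes fill the space at the node of Ranvier. Several of the membrane forms mark oligodendrocyte precursors, and chondroitin sulfate chains are known to restrain the growth of axons and of oligodendrocyte processes.

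RNA-seq compared Qk-KO with WT, as labelled, in the mouse corpus callosum (4 and 4 libraries) and in oligodendrocytes differentiated from neural stem cells (3 and 3), all of an FvB/C57BL6 hybrid strain. Qk encodes quaking, an RNA-binding protein of myelinating glia. Animals labelled Qk-KO were Plp-CreERT2;QKLoxP/LoxP and those labelled WT were Plp-CreERT2;QKLoxP/+, so the controls also carried the Cre driver and 1 floxed copy. The inducible Cre is driven by Plp, a gene of oligodendrocytes. All 8 animals received tamoxifen at 8 weeks of age, and tissue was taken 4 days later. The cultures, at passages 7, 12 and 13 in each genotype, were differentiated with IGF-1 (100 ng/ml), the thyroid hormone T3 (50 ng/ml), GlutaMAX-I (2 mM) and B-27 in Neurobasal. Every culture labelled Qk-KO also carries 40HT in its description and every culture labelled WT carries EtOH, so agent and genotype cannot be told apart.

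Fitted counts summed to 15048646 to 27666519 per callosum library and 38325833 to 48912999 per culture library. The deposited columns for single libraries hold model means without replicate spread, so each level below is 1 fitted normalized count per genotype (a model mean divided by the library's size factor). The tests are the authors' DESeq2 tests, and a gene was called at an adjusted p under 0.05. Total Qk RNA was called higher, not lower, in the cultures labelled Qk-KO, with 88261 fitted normalized counts in WT and 139023 in Qk-KO (log2 0.66 ± 0.14 SE, adjusted p 4.19e-05, the authors' deposited table). This direction goes against what the label would give for a total loss of the RNA. In callosum Qk had 14541 and 18214 and did not pass (log2 0.32 ± 0.12, adjusted p 0.162, the authors' deposited table). A whole-gene total does not measure the floxed stretch, so it tests neither the recombination nor the labelling. In WT callosum the markers Mbp (2925 fitted CPM, fitted counts scaled to a common library total), Snap25 (1540 CPM, neuronal) and Ttr (1865 CPM, choroid plexus) were all abundant. In WT culture Mbp stood at 525 CPM and the astrocyte marker Gfap at 4008 CPM, so the cultures labelled oligodendrocyte also held astrocyte RNA. In either system, fewer cells of a type and less RNA per cell cannot be told apart.

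In the corpus callosum, Hapln2 was the 1 gene of the family that fell, to 0.552 of its WT level, and the other tested genes did not pass. Hapln2, also known as Bral1, encodes a link protein made by oligodendrocytes and placed at nodes of Ranvier. Its fitted normalized count was 800.1 in WT and 442 in Qk-KO. The log2 change was -0.86 ± 0.17 with an adjusted p of 6.67e-05 (authors' deposited table), and the 95% interval ran from -1.19 to -0.52. By size it was the 26th of the 46 genes that fell, within a table where 2.32% of the tested genes were called, 0.231% lower and 2.09% higher. With a Student reference for the deposited score the Hapln2 call was lost (adjusted p = 0.294). That setting called 8 of the 19935 genes tested in callosum. Of the 9 family genes tested, 1 was called, which is 11.1%.

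The Hapln2 promoter is shown because this gene carries the callosum call. The 250 bases before the RefSeq start (GRCm38.p6, chr3:88027512-88027761, minus strand) are printed 5′ to 3′ with matches to ACAAT or its reverse complement, the core of Sox factor sites, and to the GC box GGGCGG or its reverse complement in capitals.
Hapln2: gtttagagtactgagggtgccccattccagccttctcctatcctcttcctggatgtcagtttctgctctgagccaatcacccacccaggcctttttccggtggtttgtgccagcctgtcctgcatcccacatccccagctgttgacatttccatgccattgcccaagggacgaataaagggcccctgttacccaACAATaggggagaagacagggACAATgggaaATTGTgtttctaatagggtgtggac
Hapln2 held 3 Sox core matches and no GC box, and none of these overlapped. In the GENCODE M21 annotation the gene begins further upstream, at 88027583. The end of the window, with all 3 matches, thus lies inside that annotated gene. Over 32851 promoters of this length, 27.7% held the Sox core and 32.7% the GC box, on either strand. Such a match is a description of the letters and not a binding site.

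None of the lecticans was called in callosum. Brevican (Bcan), a lectican of astrocytes and the oligodendrocyte lineage, had 3447 fitted normalized counts in WT and 3217 in Qk-KO (log2 -0.10 ± 0.13 in the authors' deposited table). Neurocan (Ncan), made by neurons and astrocytes, had 4147 and 4366 (log2 0.07 ± 0.14 in the authors' deposited table). Versican (Vcan), whose short brain form lies at nodes, had 1102 and 1177 (log2 0.10 ± 0.14 in the authors' deposited table). Aggrecan (Acan), the main lectican of perineuronal nets, was the lowest of the 4 with 155 and 143 (log2 -0.12 ± 0.23 in the authors' deposited table). All 4 intervals included 0. That of Acan was the widest of the 4, from -0.57 to 0.34, and that of Bcan ran from -0.35 to 0.15.

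None of the membrane proteoglycans was called either, nor was the tenascin Tnr. The precursor and pericyte proteoglycan NG2 (Cspg4) had 448 fitted normalized counts in WT and 484 in Qk-KO (log2 0.11 ± 0.12 in the authors' deposited table). Neuroglycan C (Cspg5), a transmembrane proteoglycan of neurons and glia, had 3997 and 4361 (log2 0.13 ± 0.14 in the authors' deposited table). The receptor phosphatase Ptprz1, whose secreted form is phosphacan, had 4654 and 4549.7 (log2 -0.03 ± 0.17 in the authors' deposited table). Tenascin-R (Tnr), made by oligodendrocytes and some neurons, was the most abundant by count with 4825 and 5152 (log2 0.09 ± 0.09 in the authors' deposited table). The 8 genes that did not pass had log2 changes between -0.12 and 0.13, each with an adjusted p of 1.00 and none with an unadjusted p below 0.300 in the authors' deposited table.

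Tenascin-C (Tnc), a matrix protein of immature and reactive astrocytes and of stem cell niches, could not be called in callosum. Its fitted normalized count was 652 in WT and 358 in Qk-KO. The log2 change of -0.86 ± 0.53 is as large as that of Hapln2, but Tnc is 1 of 156 genes with a fold change and no p-value in the authors' deposited table. The reason for the empty p is not given in the sources used here. The standard error of Tnc was at the 99.7th percentile of the tested genes with Tnc added, and its interval ran from -1.91 to 0.18. A p computed from the deposited score, an alternative chosen after seeing the data, was 0.105 before adjustment and 0.811 after it.

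**Figure D1:**
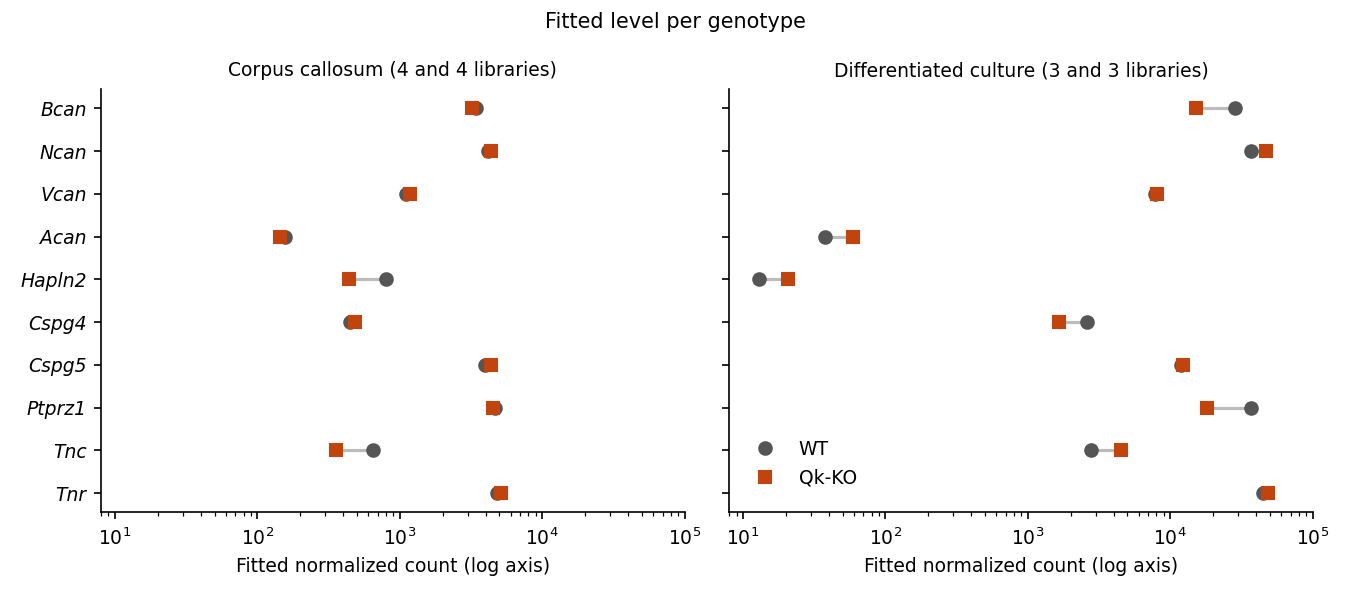
Fitted normalized counts (horizontal log axis) of the 10 genes in WT (grey circles) and Qk-KO (orange squares), in callosum on the left and culture on the right. In callosum Hapln2 and Tnc are the genes whose symbols stand apart. In culture Bcan, Cspg4 and Ptprz1 lie lower in Qk-KO, and Tnc, Hapln2 and Acan lie higher there without passing.

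In culture, 3 genes of the family fell: Ptprz1, Bcan and Cspg4, to 0.492, 0.539 and 0.631 of their WT levels. None rose at the threshold, and the 7 others had positive log2 changes from 0.04 to 0.71 that did not pass, with the lowest unadjusted p at 0.127 in the authors' deposited table. The 3 of 10 called genes (30%) stand against 28.6% of all tested genes called in culture, 15.2% lower and 13.3% higher, so the count is near the background of this table. Median log2 changes were 0.08 over the 10 genes and 0.01 over all tested genes.

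Ptprz1 had 37081 fitted normalized counts in WT and 18257 in Qk-KO cultures. The log2 change was -1.02 ± 0.23 with an adjusted p of 6.04e-05 (authors' deposited table), and the interval ran from -1.46 to -0.58. Bcan had 28291 and 15259, a log2 change of -0.89 ± 0.21 with an adjusted p of 0.000154 (authors' deposited table). For Cspg4 the counts were 2611 and 1647, with a log2 change of -0.66 ± 0.17 and an adjusted p of 0.000806 (authors' deposited table). These 3 genes ranked 1069th, 1297th and 1782nd by size among the 2667 genes that fell in culture. With a Student reference the calls were lost, with adjusted p values of 0.110 for Ptprz1, 0.117 for Bcan and 0.132 for Cspg4. That setting called 0 of the 17503 genes tested in culture, so it does not set these 3 apart from other genes. Scaling by library size in place of the size factors kept all 3 calls.

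The promoters of the 3 genes that fell together in culture are shown for comparison with each other, in the same window and with the same capitals as for Hapln2. They lie at chr6:22875252-22875501 on the plus strand (Ptprz1), chr3:88000357-88000606 on the minus strand (Bcan) and chr9:56864854-56865103 on the plus strand (Cspg4). The GENCODE M21 start of Cspg4 is at 56865033, so the end of its window lies inside that annotated gene.
Ptprz1: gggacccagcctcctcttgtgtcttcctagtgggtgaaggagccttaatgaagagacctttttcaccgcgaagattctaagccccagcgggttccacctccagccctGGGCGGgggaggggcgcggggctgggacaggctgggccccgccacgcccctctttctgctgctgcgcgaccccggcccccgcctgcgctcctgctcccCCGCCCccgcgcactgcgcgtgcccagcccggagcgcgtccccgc
Bcan: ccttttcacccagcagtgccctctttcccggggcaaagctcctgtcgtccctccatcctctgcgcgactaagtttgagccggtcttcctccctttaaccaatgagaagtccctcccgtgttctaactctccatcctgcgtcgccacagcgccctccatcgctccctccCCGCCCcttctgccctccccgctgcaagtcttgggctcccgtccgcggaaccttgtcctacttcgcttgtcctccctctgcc
Cspg4: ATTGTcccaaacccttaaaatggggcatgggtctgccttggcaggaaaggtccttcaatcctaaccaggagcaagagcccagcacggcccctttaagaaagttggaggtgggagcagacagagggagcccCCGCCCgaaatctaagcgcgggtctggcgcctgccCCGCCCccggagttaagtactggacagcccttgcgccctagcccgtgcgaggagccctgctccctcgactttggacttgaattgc
Ptprz1 held 2 GC boxes, Bcan 1 and Cspg4 2, and Cspg4 also held 1 Sox core match. No matches overlapped in these windows. Of the others searched on both strands, the NFI motif TTGGC was found once in Cspg4 and once in Hapln2, and the E-box CANNTG once in Hapln2. No match to the thyroid hormone receptor motif AGGTCA was found in the 4 windows. These letters occurred in 41.5%, 66.2% and 14.02% of all promoters. Family genes that were not called held the GC box as well: Vcan 2, Ncan 1, Acan 3 and Tnc 1 in each of its 2 windows, with 0 in Tnr. The Sox core was also found in Tnc, 2 times in one window and 1 time in the other. Cspg5 had no promoter to search.

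The lecticans of the cultures split, with Bcan lower and the other genes not called. Ncan had 37116 fitted normalized counts in WT and 46899 in Qk-KO (log2 0.34 ± 0.24, adjusted p 0.318, the authors' deposited table). Vcan had 7826 and 8064 (log2 0.04 ± 0.17, adjusted p 0.895, the authors' deposited table). Acan was the lowest lectican by count with 37.9 and 58.9 (log2 0.64 ± 0.50, adjusted p 0.373, the authors' deposited table). The Acan interval, from -0.34 to 1.61, covers changes in both directions.

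Per kb of exon, Bcan and Ncan made up most of the lectican RNA in every group. In WT cultures Bcan held 55.0% of the summed lectican level (fitted CPM per kb) and Ncan 40.7%. In Qk-KO cultures the shares were 34.6% for Bcan and 60.1% for Ncan. With the longest transcript as the length, Bcan stood at 60.9% in WT and 40.4% in Qk-KO cultures. In callosum Bcan held 55.7% and 52.8% and Ncan 37.9% and 40.5%. Acan never exceeded 1.37%. These shares are computed from fitted means and carry no test.

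**Figure D2:**
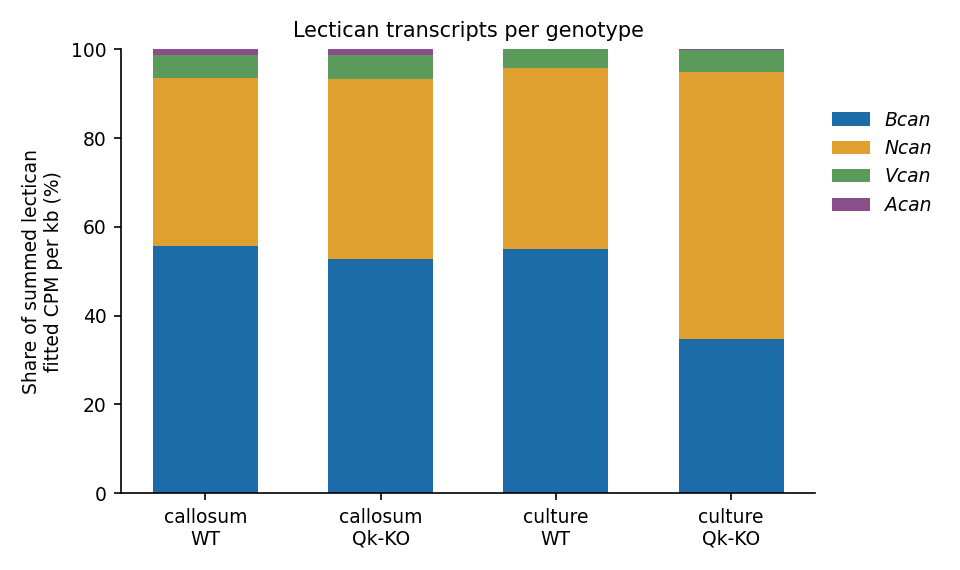
Stacked bars give each lectican's share, in percent, of the summed lectican fitted CPM per kb of exon in the 4 groups. The Bcan part shrinks from 55.0% in WT cultures to 34.6% in Qk-KO cultures, and in callosum it is 55.7% and 52.8%.

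Among the remaining genes in culture, Tnr was the most abundant by count with 44849 fitted normalized counts in WT and 48224 in Qk-KO (log2 0.10 ± 0.16, adjusted p 0.702, the authors' deposited table). Cspg5 had 11864 and 12274 (log2 0.05 ± 0.26, adjusted p 0.923, the authors' deposited table). Tnc had 2772 and 4543, a log2 change of 0.71 ± 0.47 with an adjusted p of 0.270 (authors' deposited table). Its interval, from -0.20 to 1.63, includes 0 and a rise of over 3-fold at the upper bound (3.09). Hapln2 was barely present, with 13.0 and 20.8 fitted normalized counts (log2 0.68 ± 0.58, adjusted p 0.428, the authors' deposited table).

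**Figure D3:**
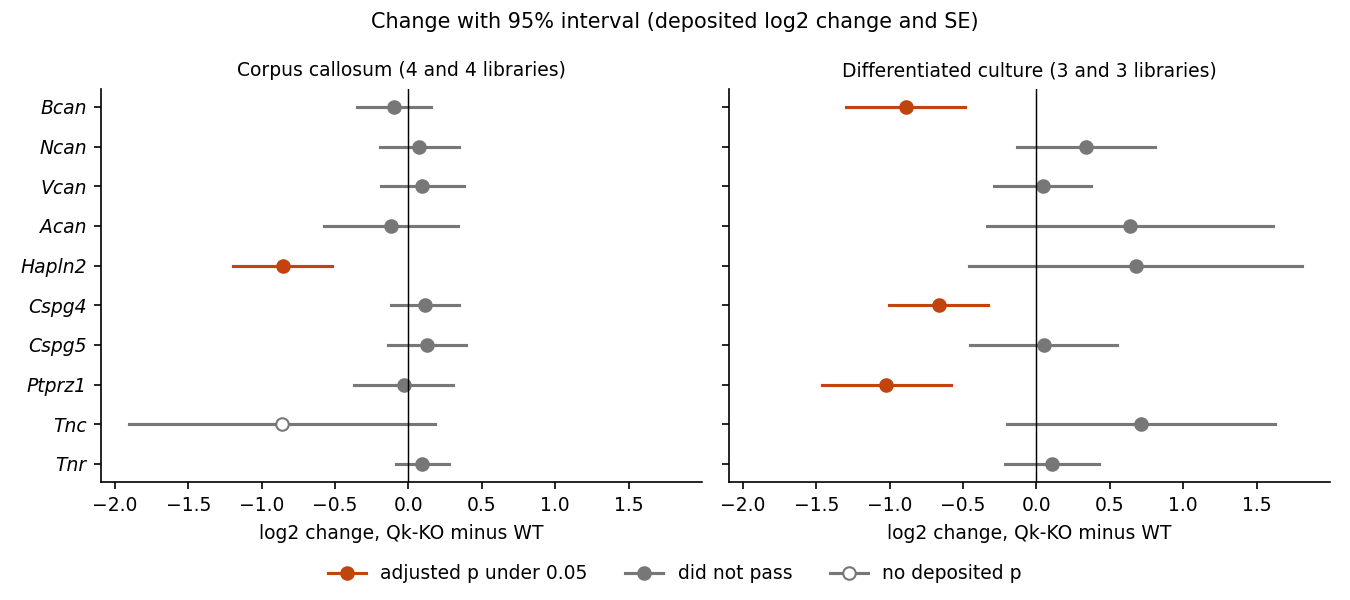
Log2 change (Qk-KO minus WT, horizontal axis) of each gene with its 95% interval, from the deposited change and standard error. Orange marks the called genes (Hapln2 in callosum, Bcan, Cspg4 and Ptprz1 in culture), grey those that did not pass, and the open circle is Tnc in callosum, which has no p.

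The order of the levels per kb of exon differed in places between the systems. In WT callosum it ran from Bcan (41.6 CPM per kb) through Ncan (28.2), Cspg5 (19.4), Tnr (18.4), Hapln2 (16.5) and Ptprz1 (16.0) to Tnc (4.11), Vcan (3.73), Cspg4 (1.84) and Acan (1.02). The first 6 lay in the top 10% by level of 32747 genes with reads and a length. In Qk-KO callosum Hapln2 stood at 9.28 CPM per kb, behind Ptprz1 at 15.9. In WT culture the order was Bcan (156 CPM per kb), Ncan (115), Tnr (77.9), Ptprz1 (58.2), Cspg5 (26.3), Vcan (12.1), Tnc (7.97), Cspg4 (4.89), Hapln2 (0.123) and Acan (0.113). Bcan ranked 166th of 28372 genes there. In Qk-KO culture Ncan (154) came before Bcan (88.5 CPM per kb). Hapln2 was thus 5th of 10 in WT callosum and 9th of 10 in WT culture, in tables that were normalized separately. The fitted means carry no error, so neighbours in these orders could not be tested. Ptprz1 depends most on the length used, at 28.3 CPM per kb of its longest transcript in WT callosum.

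The change differed between culture and callosum for 3 genes, by a z test that set the deposited changes against their combined SE, adjusted over the 16601 genes with a test in each table. For Cspg4 the log2 change was -0.66 in culture and 0.11 in callosum, a difference of -0.78 ± 0.21 (adjusted p = 0.00184). For Ptprz1 the difference, culture minus callosum, was -0.99 ± 0.28 (adjusted p = 0.00414), and for Bcan it was -0.79 ± 0.24 (adjusted p = 0.00847). Of the 9 family genes tested 3 differed, all with the lower change in culture. Over all genes 21.5% differed at this threshold, 11.7% with the lower change in culture and 9.84% with the higher. That split of 1944 lower and 1633 higher turned to 1774 lower and 1976 higher under library size scaling, where the family genes Ptprz1, Bcan and Cspg4 were still called lower. With a Student reference Bcan no longer passed (adjusted p = 0.0636). Hapln2 did not pass, with a difference of 1.53 ± 0.60 (adjusted p = 0.0517) that rests on a culture change that was not called either. Its adjusted p was 0.0409 under library size scaling and 0.136 with the Student reference.

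For Vcan, Tnr and Cspg5 the difference between systems lay between -0.08 and 0.01, with intervals from -0.65 to 0.49 at the widest. Ncan (0.26 ± 0.28) and Acan (0.75 ± 0.55) did not pass either. Tnc had changes of -0.86 in callosum and 0.71 in culture in the authors' deposited table. Their difference of 1.58 ± 0.71 was not tested, because the callosum p is empty.

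**Figure D4:**
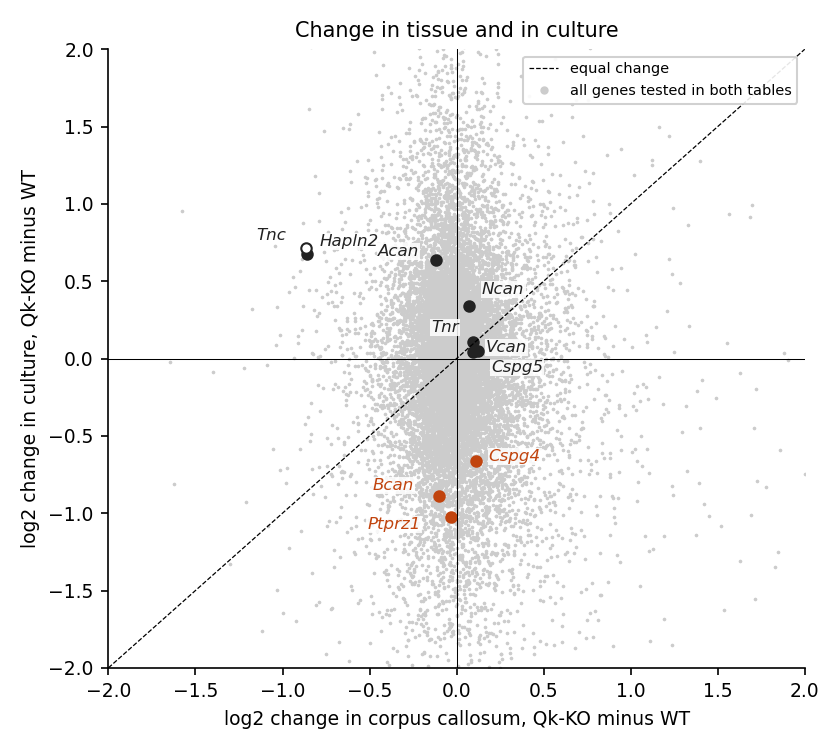
Log2 change in culture (vertical) against log2 change in callosum (horizontal), both Qk-KO minus WT, for the 16601 genes tested in both tables (grey, 329 of them outside the axes of ±2) and the 10 family genes. Bcan, Cspg4 and Ptprz1 (orange) lie below the dashed line of equal change with an adjusted p under 0.05 for the difference, and the open circle is Tnc, which was not tested.

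The calls of the family were also counted under other settings, each beside the share of all genes it calls. In callosum the 1 call was kept at a threshold of 0.01 (1.66% of all genes), with no filter (1.28%), with a mean of at least 50 (2.95%), with library size scaling (2.46%) and with the empty p filled from the score (2.3%), and lost with the Student reference (0.0401%). In culture the 3 calls were kept at 0.01 (20.3%), with no filter (15.9%), with a mean of at least 50 (36.3%) and with library size scaling (30.6%). There the Student reference called 0 of the family and 0% of all genes. For the difference between systems, 3 were called at 0.01 (14.2%) and with a mean of at least 50 (27.3%), 4 with library size scaling (22.6%) and 2 with the Student reference (11.9%).

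Each lectican gene lies beside a link protein gene in the GENCODE M21 annotation of GRCm38, with no protein-coding gene between them. Bcan (chromosome 3, 87987531 to 88000230) and Hapln2 (88021750 to 88027583) are on the minus strand, 21519 bases apart. Of this pair Hapln2 fell in callosum and Bcan in culture. Hapln1 lies 43659 bases from Vcan and fell in culture to 0.0767 of its WT level, from 85.3 to 6.54 fitted normalized counts (log2 -3.70 ± 0.50, adjusted p 5.68e-12, the authors' deposited table). Vcan beside it did not pass. Hapln1 in callosum had 0.12 ± 0.21, with 481 and 523 fitted normalized counts in the authors' deposited table. Hapln4, which lies 2222 bases from Ncan, had -0.29 ± 0.16 in callosum and 0.74 ± 0.33 in culture (adjusted p = 0.0766, the authors' deposited table). Hapln3 is 2 bases from the end of Acan and had 29.7 and 30.7 fitted normalized counts in callosum and 8.30 and 20.3 in culture (adjusted p = 0.0796, the authors' deposited table). Reads at touching gene ends could be shared, and the strand setting of the counting is not given in the sources used here. Exons of 2 family genes overlap a gene on the other strand. These are 8030451A03Rik for Tnc, with a mean normalized count of 1.29 in callosum and 1.65 in culture, and Gm38039 for Tnr, at 0 in both tables.

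Genes that build, cut and bind these proteins changed in culture in both directions and in few cases in callosum. Of 108 other genes listed for this biology, 102 were tested in callosum, where 5 rose and none fell. They are 4.90% of the tested ones, against 2.32% of all genes. In culture 99 were tested, 22 rose and 17 fell, which is 39.4% against 28.6% of all genes. Their median log2 changes were -0.04 in callosum and 0.05 in culture, against -0.01 and 0.01 over all tested genes.

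Enzymes of the chondroitin chain showed no call in callosum in any of 3 lists (22 genes tested, none with an unadjusted p under 0.05). In culture 1 of 7 linkage enzymes fell, B3gat3, the last glucuronyltransferase of the linkage region (log2 -0.40 ± 0.13 in the authors' deposited table). Of 6 chain polymerases, 2 rose and 1 fell. Chsy1 rose by 0.46 ± 0.16 and Csgalnact2, which starts the chain, by 0.42 ± 0.17, while Chsy3 fell by 0.98 ± 0.26 in the authors' deposited table. Of 9 sulfotransferases and epimerases, 3 rose and 1 fell. Chst3, the 6-O-sulfotransferase, fell from 946 to 327 fitted normalized counts (log2 -1.53 ± 0.17 in the authors' deposited table). The 4-O-sulfotransferase Chst11 rose from 7072 to 10013 (log2 0.50 ± 0.13 in the authors' deposited table). Ust, the uronyl 2-O-sulfotransferase, rose from 7773 to 14332 (log2 0.88 ± 0.21 in the authors' deposited table). Dse, the dermatan sulfate epimerase, rose by 0.89 ± 0.23 in the authors' deposited table. The sulfation enzymes called in culture thus did not move one way.

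Proteases and their inhibitors were called in both directions in culture, where 2 of 12 rose and 4 fell. The lectican-cleaving Adamts15 rose 6.66-fold, from 27.6 to 184 fitted normalized counts (log2 2.74 ± 0.37 in the authors' deposited table). Adamts1 fell by 1.44 ± 0.22 and the membrane protease Mmp14 by 1.24 ± 0.17 in the authors' deposited table. The inhibitor Timp1 fell by 2.49 ± 0.46, and the inhibitor Timp3 rose by 0.70 ± 0.16 in the authors' deposited table. In callosum 1 of 12 rose, Adamts4, a protease made by oligodendrocytes that cuts brevican, from 1060 to 1677 fitted normalized counts (log2 0.66 ± 0.17, adjusted p 0.00505, the authors' deposited table).

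Among hyaluronan genes, the receptor Cd44 rose 2.46-fold in callosum (log2 1.30 ± 0.25 in the authors' deposited table), the 1 call of 9. In culture 2 of 9 rose and 2 fell. Hmmr, a hyaluronan-binding protein of dividing cells, rose by 1.11 ± 0.26 and Cemip, which breaks hyaluronan down, by 0.92 ± 0.32 in the authors' deposited table. The synthase Has2 fell by 1.11 ± 0.29 and the hyaluronidase Hyal1 by 0.74 ± 0.19 in the authors' deposited table.

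Receptors and ligands included a partner of Ptprz1 that rose in both systems. Pleiotrophin (Ptn), a growth factor that binds the chondroitin chains of Ptprz1, rose in callosum from 4195 to 5642 fitted normalized counts (log2 0.43 ± 0.11, adjusted p 0.00777, the authors' deposited table). In culture Ptn rose from 12164 to 26159.5 (log2 1.10 ± 0.24, adjusted p 6.34e-05, the authors' deposited table), while Ptprz1 fell. The contactin Cntn3 also rose in culture (1.88 ± 0.29 in the authors' deposited table). Of the 18 receptor genes, 1 rose in callosum, the axonal contactin Cntn2 (0.70 ± 0.12 in the authors' deposited table). In culture 6 rose and 3 fell. Itga9, an integrin subunit for tenascin-C, rose by 1.29 ± 0.20, Lingo1 by 1.22 ± 0.16 and Cntn2 by 1.11 ± 0.29 in the authors' deposited table. Itga8 fell by 3.00 ± 0.27, Itgav by 0.97 ± 0.14 and the receptor phosphatase Ptprf by 0.66 ± 0.18 in the authors' deposited table.

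**Figure D5:**
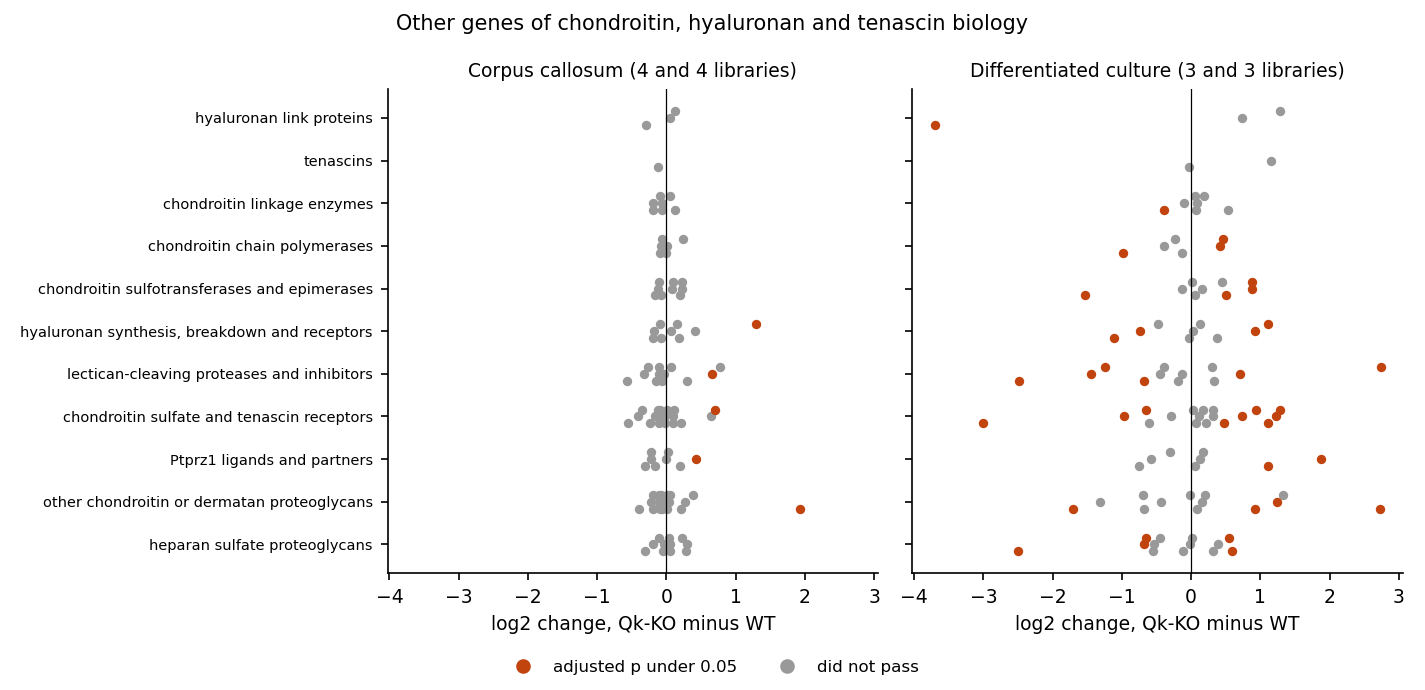
Log2 change (Qk-KO minus WT) of the tested genes in each list, 1 point per gene, with called genes in orange and the family genes left out, in callosum (left) and culture (right). Callosum has 5 called genes, all higher, and culture has 22 higher and 17 lower, among them Hapln1 at -3.70.

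Quaking proteins are known to bind RNA at ACUAAC and ACUAAU, and these letters were counted in the 3′ UTR of 1 GENCODE transcript per gene on the sense strand. The windows below show the motif in capitals within 30 bases, written as DNA, for the genes of the family that hold it in that region, with 1 window of 3 for Tnr and 1 of 2 for Cspg5.
Ptprz1: gttatccaagaaACTAACcctgtttctgca
Ncan: gcatgtacacacACTAACacaccttctcgc
Cspg5: gctcactgtgtgACTAACattgaatgtgca
Tnr: ggcccagtgtgtACTAATcgggcccatggc
Ptprz1 held 1 match in 804 bases, where 23.2% of 2426 genes with a 3′ UTR of like length (within 20%) held at least 1. Ncan held 1 in 3235 bases, Cspg5 2 in 6091 and Tnr 3 in 7516, lengths at which 64.0%, 83.9% and 91.5% of genes held one. No match was found in the 3′ UTRs of Vcan, Bcan, Acan, Cspg4, Tnc or Hapln2. Thus 1 of the 4 called genes held the letters in this window, as did 3 of the 6 others.

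Markers of other cell types moved with genotype in both systems, and their part in the results above was not tested. In callosum 8 of 10 microglia markers rose, with the summed level going from 421 to 914 fitted CPM. Mature oligodendrocyte markers stood at 7450.3 and 7955 CPM summed, with 4 of 11 higher and none lower, while Hapln2 fell. The choroid plexus and ependymal list was at 1981 CPM in WT and 1155 in Qk-KO, with no call among 6. Of these, 4 were lower and 0 higher at an unadjusted p under 0.05 in the authors' deposited table. The median log2 change of the list was -0.78. Of 11 astrocyte markers 2 rose, with summed levels of 5180.4 and 6335 CPM, and Gfap went from 228 to 965 CPM. In culture 9 of 11 astrocyte markers fell, from 14347 to 4284 CPM summed. Bcan, Ptprz1 and Cspg4 fell there too, while the 7 other family genes had positive changes that did not pass. Those 7 include Ncan (0.34 ± 0.24) and Tnc (0.71 ± 0.47), which astrocytes also make. Mature oligodendrocyte markers in culture stood at 2743 CPM in WT and 2143 in Qk-KO, with 2 of 11 higher and 2 lower. Of 7 precursor markers 2 were called higher in culture, Olig1 (0.61 ± 0.14) and Olig2 (0.81 ± 0.16), and none lower. The summed level of this list went from 1389 to 1919 CPM. At an unadjusted p under 0.05 in the authors' deposited table, 3 were higher and 1 was lower, Lhfpl3 (-0.61 ± 0.26). The precursor receptor Pdgfra had -0.32 ± 0.25 (adjusted p = 0.368, the authors' deposited table). Neuron markers rose in 8 of 11 cases, from 756 to 1781 CPM. Microglia RNA was scarce there, with 8 of 10 markers under 1 CPM in WT.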

How the data were processed

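Count-derived tables of mouse corpus callosum (8 libraries) and of differentiated cultures (6 libraries) were used as deposited. Per the submitters' processing notes the authors used FastQC, TopHat2 2.0.14, featureCounts and DESeq2 with mm10. No source used here gives the annotation or the strand setting, and none states the model design. Per the file headers and values, the library columns hold log2 values of a fitted count plus 1 that the authors deposited. Within a genotype they differ by 1 constant factor at genes with a mean of at least 100, within 1e-09, so they carry no replicate spread, and no test, replicate block or single-library check can be made from them. The deposited mean is a normalized signal, the average of counts over size factors. The deposited log2 fold change and its SE had the opposite sign and were turned so that positive means higher in Qk-KO. The score the authors deposited is this change divided by its SE. Of the p-value columns deposited by the authors 1 is unadjusted and 1 is adjusted after Benjamini-Hochberg, and recomputing the latter returned it within 1e-09.

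Size factors were recovered from these columns. Intervals are the change ± 1.96 SE. Fitted CPM is the share of a library's fitted counts. Exon lengths came from GENCODE M21 (GRCm38, the build of mm10), matched for 46488 of 46983 genes by identifier without version. Promoters came from RefSeq (GRCm38.p6), matched for 9 of the 10 genes. The z test of the difference between systems was adjusted over all genes tested in both tables and tested on simulated data. Python 3.11.15, scipy 1.17.1 and pandas 2.3.3 were used.

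The edgeR test that the plan allowed for raw counts was not run, since the tables hold none. The genes and lists were chosen with earlier results of these data known. Named were all 10 genes, Qk, up to 3 called genes per list, direction and comparison with the smallest p, and abundant markers. Hapln3, Hapln4, Pdgfra, Olig1, Olig2, Lhfpl3 and the overlapping genes were named after their values were seen. Alternatives were a threshold of 0.01, no filter, a mean of at least 50, library size scaling and a Student reference. Whether replicates are separate cultures is not stated, so p-values for culture measure the spread between these samples. Shrunken fold changes may understate genes with few reads.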

Additional observations from a re-analysis of the deposited data

Results flagged for a closer look

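For 3 genes the difference between genotypes was not the same in culture and in callosum by the z test of the difference, adjusted over 16601 genes. Ptprz1 had a change in culture minus change in callosum of -0.99 log2 units, Bcan of -0.79 and Cspg4 of -0.78. All 3 fell in culture and did not pass in callosum. At this threshold 21.5% of all genes tested in both tables differ.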

How the results depend on the processing

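No paired analysis was possible because the deposited library columns are fitted means without replicate spread, and for the same reason no replicate could be left out. With a Student reference for the deposited score (6 degrees of freedom in callosum, 4 in culture), the number of called family genes went from 1 to 0 in callosum and from 3 to 0 in culture, with 1 and 3 at an unadjusted p under 0.05. Over all genes the DESeq2 calls went from 463 to 8 in callosum and from 5003 to 0 in culture (900.0 and 4187 genes at an unadjusted Student p under 0.05); the cause of single losses was not tested. The differences between systems over all genes went from 3577 to 1970.0 with it and to 2358 at a threshold of 0.01. Under the threshold of 0.01, no filter on low counts, a mean of at least 50, and library size scaling, the counts of 1 and 3 called family genes stayed as they were. Library size scaling moved all log2 changes by 0.02 in callosum and 0.08 in culture, and turned the culture split of 2336 higher and 2667 lower genes to 3054 and 2296. The 3 differences between systems became 4 with it and 2 with the Student reference. No named result changed sign where it had been called. Other pathway genes called went from 5 to 6 in callosum and from 39 to 40 in culture under library size scaling. Acan and Hapln2 had fitted normalized counts under 60 in both genotypes in culture, where their SEs were 0.50 and 0.58.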

Other observations

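Other proteoglycans of the same cultures were also called in both directions. Of 13 tested chondroitin or dermatan proteoglycans outside the family, 3 rose and 1 fell. In the authors' deposited table the testican Spock2 rose by 0.92 ± 0.14 log2 units, Spock1 by 2.72 ± 0.54 and Sema7a by 1.24 ± 0.26. Serglycin (Srgn), a proteoglycan of secretory granules, fell by 1.70 ± 0.39 in the authors' deposited table. Of 13 heparan sulfate proteoglycans, 2 rose and 3 fell. The glypican Gpc5 fell from 183 to 32.1 fitted normalized counts (log2 -2.51 ± 0.42), Sdc2 by 0.68 ± 0.14 and agrin (Agrn) by 0.65 ± 0.15, while the syndecan Sdc3 rose by 0.59 ± 0.19 and Sdc1 by 0.55 ± 0.19, all from the authors' deposited table. In callosum none of 11 heparan sulfate proteoglycans passed (1 higher and 1 lower at an unadjusted p under 0.05), and 1 of 19 other proteoglycans rose, the antigen presentation chaperone Cd74, from 71.9 to 273 fitted normalized counts (log2 1.93 ± 0.34 in the authors' deposited table).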
